A study of Homo sapiens with 18 samples.

Results

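The regions described here are the stretches of chromosome 2 that carried H3K4me3 or H3K27me3 peaks in V16D prostate cancer cells with and without the long non-coding RNA H19. All chromosome 2 peaks of the 12 deposited lists were merged within each mark, and a merged region called in at least 2 of the 6 lists of its mark is termed a site. For H3K4me3, 1634 of 25373 merged regions lay on chromosome 2, and 1323 of them were among the 20708 sites. For H3K27me3 the counts were 7715 of 149858 merged regions and 2631 of 58789 sites. To these were added the chromosome 2 rows of the authors' 2 tables of differential sites, 85 of 1857 for H3K4me3 and 28 of 1140 for H3K27me3, here called listed sites. The members were thus chosen by measured values, namely the peak calls of these libraries and, for the listed sites, the comparison of the groups itself, so those calls and directions are given as a description without a test.

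V16D is a castration-resistant line derived from LNCaP, a line of androgen-sensitive human prostate adenocarcinoma. Both groups were grown in RPMI medium with serum and had been transduced with a lentivirus, which carried either a control vector (V16D/CTL) or the H19 transcript (V16D/H19). Each group had 3 biological replicates per mark, each with its own input library, so all values come from 1 line and 1 way of overexpressing H19. The level of H19 RNA was not analysed here.

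H3K4me3, trimethylation of lysine 4 of histone H3, marks the nucleosomes around the starts of active or poised genes and is typically found on CpG-rich promoters. H3K27me3 is placed by the Polycomb complex PRC2 and covers silenced developmental genes, often over long domains. Promoters that carry both marks are called bivalent and are typical of developmental regulators that are silent but can be induced. Chromosome 2 holds the HOXD cluster, a row of homeobox genes that pattern the body axis and limbs and is a standard example of a Polycomb domain, along with other developmental regulators such as PAX3, EN1, DLX1 and POU3F3.

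Read depth was not used here. The H3K4me3 lists held 20048 to 21934 peaks and those of H3K27me3 55060 to 72289, which does not measure their precision. The labelled cell type was checked at the promoters of 10 marker genes. H3K4me3 lay in all 6 libraries on KLK2, KLK3 and FKBP5, targets of androgen signalling in luminal prostate cells, but in none on the luminal keratin KRT8. The basal markers KRT5 and TP63, the leukocyte gene PTPRC and the neuroendocrine gene CHGA had no H3K4me3 peak in any library, whereas the neuroendocrine gene SYP and the mesenchymal gene VIM had one in all 6.

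The promoters of 7 chromosome 2 genes on which the results below turn are shown first, from 250 bases before to 50 bases after the start, 5′ to 3′ on the strand of the gene (RefSeq, GRCh38.p14), with CG dinucleotides in capitals. RND3, which encodes a small GTPase that acts on the actin cytoskeleton, held the 1 region past the test between the groups (chr2:150487618-150487917, minus strand), and DLX1, a homeobox gene of forebrain and limb, had a listed H3K4me3 decrease in a broad peak (chr2:172085257-172085556, plus strand). CCL20, the chemokine ligand of CCR6 (chr2:227813592-227813891, plus strand), and WNT6, a secreted WNT ligand (chr2:218859555-218859854, plus strand), had H3K4me3 peaks in V16D/H19 only. SPEG, a kinase of striated muscle (chr2:219441793-219442092, plus strand), REEP1, a protein that shapes the endoplasmic reticulum (chr2:86337577-86337876, minus strand), and HOXD8 (chr2:176129455-176129754, plus strand) were listed for both marks.
RND3: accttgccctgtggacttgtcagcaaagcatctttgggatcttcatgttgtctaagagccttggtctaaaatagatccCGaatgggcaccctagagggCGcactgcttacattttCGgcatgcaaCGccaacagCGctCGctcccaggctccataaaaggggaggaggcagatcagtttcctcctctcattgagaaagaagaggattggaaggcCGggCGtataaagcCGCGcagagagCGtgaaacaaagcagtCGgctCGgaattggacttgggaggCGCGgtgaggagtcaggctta
DLX1: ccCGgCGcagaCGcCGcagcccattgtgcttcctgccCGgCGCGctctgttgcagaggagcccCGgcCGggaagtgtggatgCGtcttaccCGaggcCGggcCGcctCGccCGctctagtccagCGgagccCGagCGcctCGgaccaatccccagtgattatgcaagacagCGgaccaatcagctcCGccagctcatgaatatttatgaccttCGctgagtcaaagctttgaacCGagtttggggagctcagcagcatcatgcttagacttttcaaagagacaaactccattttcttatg
CCL20: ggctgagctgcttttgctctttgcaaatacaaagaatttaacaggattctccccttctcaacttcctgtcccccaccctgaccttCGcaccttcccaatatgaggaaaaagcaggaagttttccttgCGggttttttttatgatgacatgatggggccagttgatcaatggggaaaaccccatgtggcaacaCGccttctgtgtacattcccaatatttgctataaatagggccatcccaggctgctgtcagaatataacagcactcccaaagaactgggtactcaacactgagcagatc
WNT6: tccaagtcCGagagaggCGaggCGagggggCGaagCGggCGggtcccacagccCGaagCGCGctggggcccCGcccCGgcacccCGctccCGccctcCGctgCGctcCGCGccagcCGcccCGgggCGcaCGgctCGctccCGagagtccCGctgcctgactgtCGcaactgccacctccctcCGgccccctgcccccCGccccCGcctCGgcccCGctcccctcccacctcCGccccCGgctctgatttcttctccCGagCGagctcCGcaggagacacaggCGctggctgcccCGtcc
SPEG: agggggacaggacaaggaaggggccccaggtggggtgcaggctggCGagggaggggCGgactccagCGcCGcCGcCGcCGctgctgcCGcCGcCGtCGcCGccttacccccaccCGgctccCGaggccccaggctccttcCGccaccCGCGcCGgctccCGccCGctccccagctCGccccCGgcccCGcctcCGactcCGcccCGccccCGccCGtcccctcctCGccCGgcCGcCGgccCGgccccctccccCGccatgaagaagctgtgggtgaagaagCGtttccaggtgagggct
REEP1: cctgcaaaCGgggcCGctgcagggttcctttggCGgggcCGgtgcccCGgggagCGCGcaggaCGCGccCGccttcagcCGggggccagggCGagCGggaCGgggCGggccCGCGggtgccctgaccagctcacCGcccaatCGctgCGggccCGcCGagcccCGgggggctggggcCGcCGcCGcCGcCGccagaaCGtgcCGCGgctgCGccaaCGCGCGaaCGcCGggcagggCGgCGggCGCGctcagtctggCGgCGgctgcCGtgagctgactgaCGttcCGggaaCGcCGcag
HOXD8: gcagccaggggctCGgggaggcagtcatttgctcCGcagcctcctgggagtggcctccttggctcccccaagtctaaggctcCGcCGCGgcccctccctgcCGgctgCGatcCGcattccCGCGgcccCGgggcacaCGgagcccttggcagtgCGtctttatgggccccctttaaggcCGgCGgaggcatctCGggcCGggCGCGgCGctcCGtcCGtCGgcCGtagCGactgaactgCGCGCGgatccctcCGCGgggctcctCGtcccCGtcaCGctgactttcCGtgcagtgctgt

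The 3 promoters listed for both marks were rich in CG dinucleotides, with 35 in SPEG, 48 in REEP1 and 34 in HOXD8, and so was WNT6 with 37. The CCL20 promoter held 3, for an observed-to-expected CpG ratio of 0.190 against 0.996 in REEP1. RND3 with 15 and DLX1 with 23 lay between them. The letters TATAAA, searched on both strands, were found in RND3 and CCL20 and in 11.5% of all 35116 promoters of the RefSeq table. CCAAT was found in RND3, DLX1, CCL20 and REEP1 (34.6% of all), and GGGCGG in WNT6, SPEG and REEP1 (45.0% of all). No motif contains another, and a match is only a description of the sequence.

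The same contrast held along the whole chromosome. Among protein-coding promoters of chromosome 2, the 996 with an H3K4me3 peak in all 6 libraries had a median GC content of 67.7% and a median of 29 CG dinucleotides. The 101 with H3K27me3 in all 6 libraries had medians of 67.0% and 25, and the 38 with both marks in all 6 had 71.7% and 32. The 551 without a site of either mark had 51.0% and 5. The 33 promoters at listed H3K4me3 increases (68.7% GC, 27 CG dinucleotides) and the 39 at listed decreases (64.7%, 24) were thus both of the CpG-rich kind.

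The 2 marks differed in how reproducibly they were called. Of the merged H3K4me3 regions of chromosome 2, 61.0% were called in all 6 libraries, against 5.41% for H3K27me3, of which 65.9% (5084 regions) were called in 1 library. Just outside the threshold, the 311 H3K4me3 regions called in 1 list had a median width of 231 bases, and just inside it the 115 called in 2 lists had 366 bases, whereas the 997 called in all 6 had 2029 bases. For H3K27me3 the median widths were 380 bases in 1 list, 711.5 in 2 lists and 3433 in all 6. H3K4me3 sites lay within 1 kb of a RefSeq start in 822 of 1323 cases (62.1%) and H3K27me3 sites in 218 of 2631 (8.29%).

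The number of chromosome 2 peaks in the deposited lists overlapped between the groups for both marks. For H3K4me3, V16D/CTL had 1346, 1257 and 1291 peaks and V16D/H19 had 1385, 1383 and 1283, for means of 1298 ± 44.9 and 1350 ± 58.3 (SD, n = 3). For H3K27me3 the counts were 2197, 3024 and 3163 against 2534, 2902 and 2930, for means of 2795 ± 522 and 2789 ± 221 (SD, n = 3). For H3K27me3 this depended on the peaks counted, since with lists of equal length the groups did not overlap and V16D/H19 was higher (means of 2328 and 2542), whereas at a −log10 q of at least 5 they did not overlap and V16D/H19 was lower (24.3 and 7.0). As a share of each list, however, chromosome 2 held more of the H3K27me3 peaks in V16D/H19. Its share was 3.99%, 4.36% and 4.38% in V16D/CTL against 4.51%, 4.68% and 4.66% in V16D/H19, for means of 4.24% ± 0.219 and 4.61% ± 0.0947 (SD, n = 3), without overlap. The share did not overlap with lists of equal length either, but at a −log10 q of at least 5 the groups overlapped. There the V16D/H19 mean was higher by 0.276 percentage points, against 0.372 with all peaks. With all peaks counted, 5 of the 23 chromosomes (21.7%) had a higher share in V16D/H19 without overlap, and the ratio of group means was highest for chromosome 2, at 1.09. The share of total H3K27me3 peak length also did not overlap (3.62%, 3.94% and 3.89% against 4.08%, 4.15% and 4.16%), which again was so for 5 of 23 chromosomes (21.7%). For H3K4me3 the share of peaks overlapped between the groups, and the share of peak length was higher in V16D/H19 without overlap by a ratio of 1.01 (6.24%, 6.23% and 6.26% against 6.33%, 6.30% and 6.34%), as on 5 of 23 chromosomes (21.7%).

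Strength of a peak was followed as its percentile, the rank of its −log10 p within its own list from 0 (weakest) to 100 (strongest). On this scale H3K4me3 over chromosome 2 stood higher in V16D/H19. The median percentile of all its peaks was 47.9, 47.5 and 47.5 in V16D/CTL against 48.8, 49.1 and 48.7 in V16D/H19. The groups did not overlap, and of the 23 chromosomes only 2 (8.7%), chromosomes 2 and 11, were higher without overlap. Over the 997 regions called in all 6 libraries, the mean percentile of V16D/H19 was above that of V16D/CTL in 703 (70.5%). That share was 60.9% over all 15811 such regions, and on chromosome 13 it was higher, at 72.8%. The median difference was +3.09 on chromosome 2 against +1.39 over all such regions. This median was the highest of the 23 chromosomes, ahead of chromosomes 18 (+2.16) and 21 (+2.05), and it was also the highest on the log2 fold over input, at +0.07 against +0.03. With lists of equal length the median percentile difference was +1.64 on chromosome 2 and +0.08 over all chromosomes. The share of regions that were higher was not recomputed with such lists. In single libraries the median over these 997 regions was 57.5, 54.7 and 55.7 in V16D/CTL against 60.6, 60.6 and 56.9 in V16D/H19, so that V16D/H19 replicate 3 lay below V16D/CTL replicate 1 and the groups overlapped. In total 95 of the 997 regions (9.53%) had a higher fold over input in V16D/H19 without overlap of the libraries, where 6.83% of all regions did, and 37 (3.71%) a lower one, where 4.62% of all did.

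**Figure D1:**
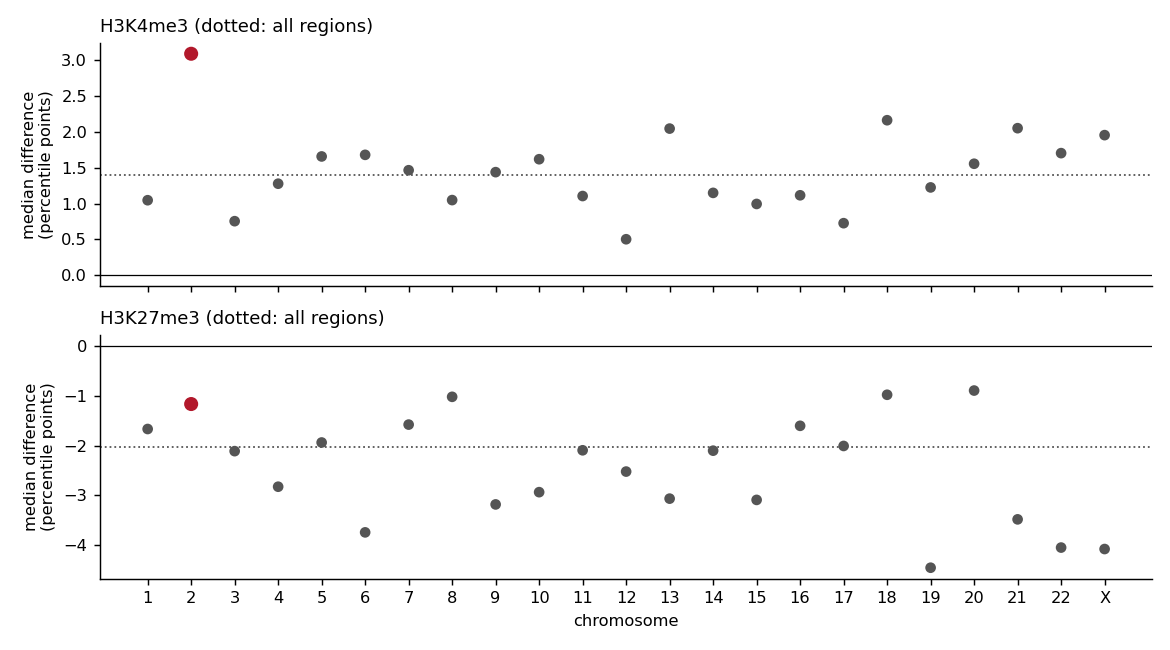
The median difference in H3K4me3 and H3K27me3 percentile, V16D/H19 minus V16D/CTL, over regions called in all 6 libraries of a mark, 1 point per chromosome and mark. Chromosome 2 has the highest H3K4me3 value (+3.09), and for H3K27me3 it stands at −1.16.

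The difference was larger on the short arm. There, 323 of 410 H3K4me3 regions (78.8%) were higher in V16D/H19, with a median difference of +3.93, and the median percentiles of the libraries were 58.5, 55.6 and 57.2 against 62.9, 62.4 and 59.5, without overlap. On the long arm 380 of 587 (64.7%) were higher, against 60.9% over all chromosomes. The median there was +2.38, with library values of 56.8, 53.7 and 54.8 against 57.8, 58.7 and 55.0, which overlapped. The long-arm median was 1.42 without V16D/H19 replicate 1, 1.54 without V16D/CTL replicate 2 or V16D/H19 replicate 2, and 0.81 with lists of equal length. In windows of 10 Mb the median percentile difference was above 0 in all 25 windows, while on the log2 fold over input it was below 0 in 4 of them (lowest −0.06). On percentiles it was highest at 50 to 60 Mb (+6.83) and lowest at 180 to 190 Mb (+0.23). The difference between the arms was not tested, and the windows were not recomputed with lists of equal length.

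For H3K27me3 the medians of the libraries overlapped, at 78.4, 82.9 and 82.7 in V16D/CTL against 81.0, 79.9 and 82.2 in V16D/H19. Of the 417 regions called in all 6 libraries, 172 (41.2%) were higher in V16D/H19, against 40.8% of all 10934. The median difference was −1.16 on chromosome 2 and −2.03 over all 10934. The chromosome 2 median was −0.39 without V16D/H19 replicate 2, −2.11 without V16D/CTL replicate 1 and −0.33 with lists of equal length. A lower fold over input without overlap was found in 33 of the 417 (7.91%, against 11.5% of all regions) and a higher one in 15 (3.60%, against 2.66%). Of the 6 windows with at least 20 such regions, that at 170 to 180 Mb, which holds HOXD, had a median of −2.88 and that at 210 to 220 Mb of −2.85, whereas that at 70 to 80 Mb had +1.02.

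**Figure D2:**
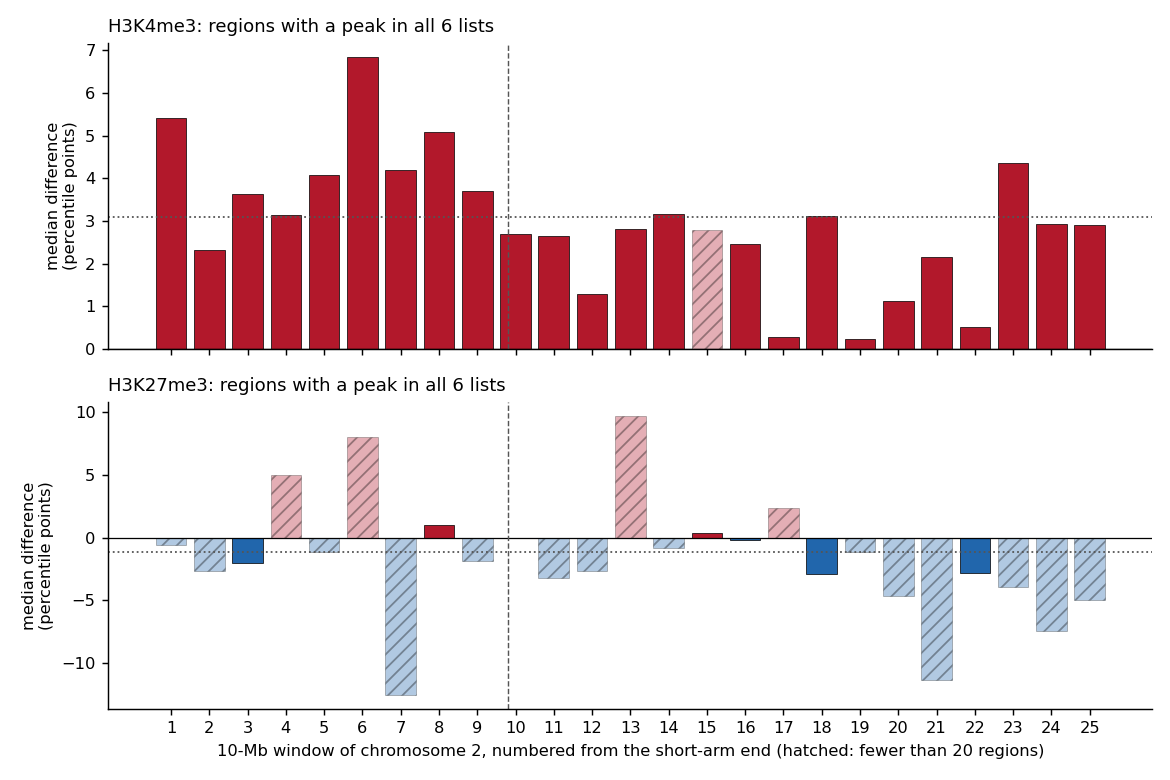
The median difference in percentile (V16D/H19 minus V16D/CTL, in percentile points) in each of 25 windows of 10 Mb, with hatched bars for windows of under 20 regions, a dotted line at the median of chromosome 2 and a dashed line at the centromere. The H3K4me3 bars all lie above 0 and reach +6.83 in window 6, while the H3K27me3 bars lie on both sides of 0.

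Single regions were tested with limma on the percentiles, fitted over all chromosomes with Benjamini-Hochberg adjustment over all regions of a mark. The region over the start of RND3 (chr2:150484496-150487726) was the only chromosome 2 H3K4me3 region of 997 past an adjusted p of 0.05, where 9 of 15811 regions (0.0569%) passed over all chromosomes. Its percentile was 46.3, 39.8 and 40.9 in V16D/CTL against 14.5, 24.2 and 19.1 in V16D/H19. All 3 V16D/H19 libraries lay below all V16D/CTL libraries, and the peak fell by 23.08 percentile points (SE 3.94, limma adjusted p = 0.00305, n = 3 a group). The fold over input told the same, at 29.5, 17.9 and 21.9 against 5.30, 7.38 and 6.80. On the log2 fold over input the difference was −1.81 and missed the threshold (adjusted p = 0.121), as it did on percentiles without V16D/CTL replicate 1 (0.0633) or V16D/H19 replicate 1 (0.0654).

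Next to it stood UNC80, a subunit of a neuronal sodium leak channel complex, at 20.7 in V16D/CTL against 39.5 in V16D/H19 (difference +18.77, SE 4.26, limma adjusted p = 0.0608). It did not pass, and without V16D/CTL replicate 1 it was the single call (+24.7, adjusted p = 0.0106). An unadjusted p under 0.05 was reached by 121 chromosome 2 regions (12.1%), of which 112 were higher and 9 lower in V16D/H19, against 9.16% over all chromosomes. For H3K27me3 no region of 417 passed, as 0% of 10934 did over all chromosomes. At an unadjusted p under 0.05 there were 27 chromosome 2 H3K27me3 regions (6.47%, against 6.29% of all), 10 higher and 17 lower, and the smallest adjusted p was 0.745.

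The authors' listed sites rest on another scale, the concentration, which is the log2 of the mean normalised read count of a group as the authors computed it, without an SD. Of the 85 listed H3K4me3 sites of chromosome 2, 41 were higher and 44 lower in V16D/H19 (48.2% higher), against 404 and 1368 on the other chromosomes (22.8% higher). Sites overlapping a listed increase were 43 of 1323 (3.25%, against 2.2% of all sites) and those overlapping a listed decrease 45 (3.40%, against 7.15%). The increases were the larger and lay on weaker peaks, with a median difference of +0.93 from a median concentration of 5.51 in V16D/CTL, while the decreases had a median of −0.45 from 8.56. A difference of at least 1 was reached by 17 increases and 10 decreases. Of the 28 listed H3K27me3 sites, 4 were higher and 24 lower (14.3% higher, against 8.36% on the other chromosomes). Sites overlapping them were 5 of 2631 for the increases (0.190%, against 0.323% of all) and 41 for the decreases (1.56%, against 2.83%).

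Along the chromosome the 85 listed H3K4me3 sites fell into 41 runs of 1 direction, 22 of them of a single site, and 1 run was longer than 5 sites. From FOSL2 to REEP1, over 57.9 Mb of the short arm, 13 consecutive listed H3K4me3 sites were all higher in V16D/H19, by 0.22 to 1.41. On the short arm 19 of 27 listed H3K4me3 sites were higher (70.4%) and on the long arm 22 of 58 (37.9%). The longest H3K27me3 run was of 15 sites, all lower (differences of −1.46 to −0.31), from GAD1 to CCDC140 beside PAX3, which spans 51.5 Mb of the long arm and includes HOXD.

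**Figure D3:**
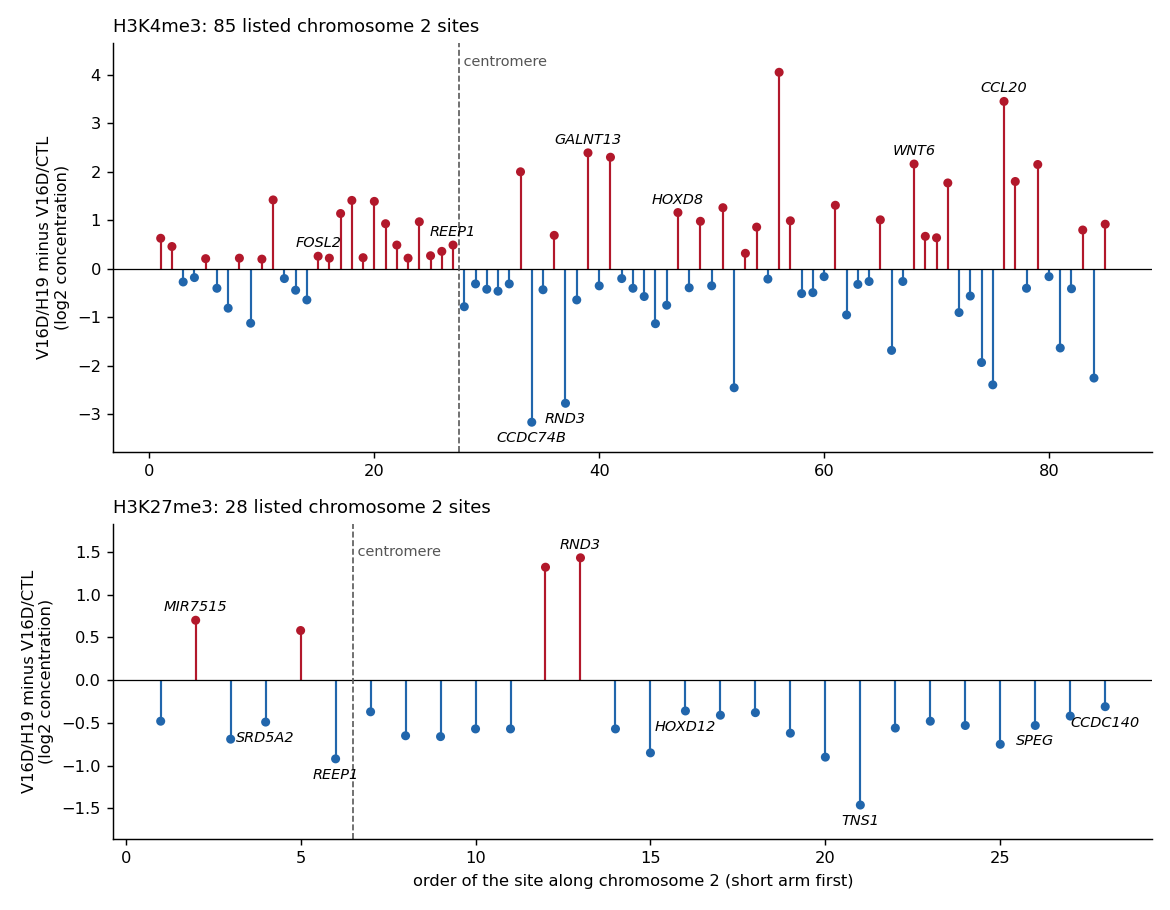
The difference in the authors' log2 concentration (V16D/H19 minus V16D/CTL) at each of the 85 H3K4me3 and 28 H3K27me3 listed sites, 1 stem per site in order along the chromosome, with higher sites above 0 in red and lower sites below 0 in blue and a dashed line at the centromere. The H3K4me3 sites are 41 above and 44 below 0, with 13 in a row above 0 from FOSL2 to REEP1, and the H3K27me3 sites are 4 above and 24 below.

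The largest H3K4me3 increase lay in an intron, at −7833 bases from the nearest start by the authors' annotation, at a site without a symbol (chr2:188392147-188392730). Its V16D/CTL concentration was the lowest of its column (−0.20), against 3.85 in V16D/H19, and it had weak peaks in V16D/H19 replicates 1 and 2 alone (folds 3.57 and 4.30). The next 6 were at promoters by the authors' annotation and had no peak in any V16D/CTL library. The sites of GALNT13 and SP140L had no RefSeq start within 1 kb. CCL20 had a concentration of 1.96 in V16D/CTL against 5.41 in V16D/H19, with no V16D/CTL peak and folds over input of 7.27, 8.34 and 5.80 in the V16D/H19 libraries. This site (chr2:227813844-227815175) began 2 bases from the RefSeq start and lay over the first bases of the gene. GALNT13, a glycosyltransferase that starts mucin-type O-glycans, went from 1.87 to 4.26 (folds 5.85, 5.96 and 6.23 in V16D/H19). SCN9A, a voltage-gated sodium channel of sensory neurons, had 1.55 and 3.85 (5.23, 8.51 and 4.67). Both also had no peak in any V16D/CTL library.

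WNT6 followed with 2.58 and 4.74, where the V16D/H19 folds of 11.0, 7.07 and 3.97 spread most. The site annotated to SP140L, which belongs to a family of nuclear body proteins that read chromatin, had 2.37 and 4.52 with folds of 8.19, 7.50 and 8.50. A site without a symbol at the start of CNTNAP5, a neuronal adhesion gene, had 1.77 and 3.77 (7.23, 5.42 and 3.84). These were again called in the 3 V16D/H19 libraries alone.

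The increases at PID1 and SPEG started from peaks that some control libraries had. PID1, an adaptor of insulin and lipoprotein receptor signalling, had concentrations of 3.35 and 5.15, with folds of 5.52 and 3.39 in V16D/CTL replicates 1 and 3, no peak in replicate 2, and 9.05, 16.8 and 11.3 in V16D/H19. SPEG had 3.15 and 4.92, with folds of 5.02 and 5.86 in V16D/CTL replicates 1 and 2 and 11.1, 13.0 and 9.27 in V16D/H19. At both, each V16D/H19 library was above each control library that had a peak.

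UNC80, among the neuronal genes listed, had peaks in all 6 libraries. Its concentrations were 4.96 and 5.97, with folds of 12.1, 5.54 and 6.02 against 15.8, 17.6 and 19.8. The groups did not overlap, although V16D/CTL replicate 1 stood above the other controls. Over all listed increases, 30 of 41 overlapped a region called in all 6 libraries, and at 12 of these the folds did not overlap between the groups, each in the listed direction. The list came from the same libraries, so this is a description. Of all H3K4me3 regions called in all 6 libraries, 6.83% had a higher fold without overlap.

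**Figure D4:**
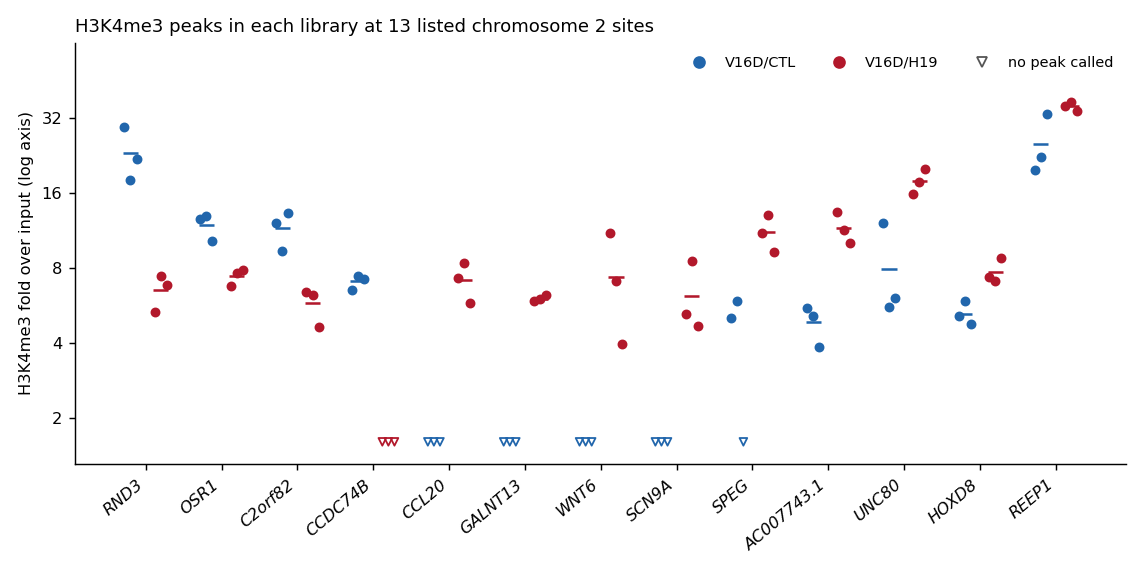
The H3K4me3 fold over input (log axis) at 13 listed sites, with 1 point per library, blue for V16D/CTL and red for V16D/H19, a bar at the mean of a group with a peak in all 3 libraries, and open triangles where no peak was called. The 13 sites were chosen after their values were seen. Among them the points of the groups do not overlap where all 6 libraries have peaks. There V16D/H19 is lower at RND3, OSR1 and C2orf82 and higher at AC007743.1, UNC80, HOXD8 and REEP1. Among all listed H3K4me3 sites called in all 6 libraries, the folds did not overlap at 12 of 30 increases and 8 of 38 decreases.

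The 8 largest H3K4me3 decreases included weak peaks that were called in V16D/CTL libraries alone as well as peaks that stayed in all 6 libraries. CCDC74B, a coiled-coil gene, had the largest, from 3.36 to 0.20, with folds of 6.53, 7.44 and 7.24 in V16D/CTL and no V16D/H19 peak. RND3, from 8.62 to 5.85, had the highest control concentration of the 8 and kept a peak in every library. SSFA2, which encodes a protein that anchors inositol trisphosphate receptors to actin, had 3.49 and 1.04 and a peak in V16D/CTL replicates 1 and 2 alone. AC010136.2 had 4.41 and 2.73, with folds of 6.82, 9.03 and 8.20 in V16D/CTL and no V16D/H19 peak, while AC104809.4 (4.48 and 2.23) kept a peak in V16D/H19 replicate 3. C2orf82, a cartilage proteoglycan gene, had 5.93 and 4.30, with folds of 12.1, 9.30 and 13.3 against 6.40, 6.24 and 4.64 that did not overlap.

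ACSL3, which activates long-chain fatty acids for lipid synthesis, had 3 listed H3K4me3 sites, all lower. Their concentrations were 11.18 and 10.62 at the main peak, 6.18 and 4.25 at the second and 3.89 and 1.50 at the weakest. The ACSL3 region was also the widest H3K4me3 region of chromosome 2, at 12436 bases. The peaks in it covered 12217, 11648 and 12092 bases in V16D/CTL against 9806, 10510 and 9046 in V16D/H19, so every V16D/H19 library was narrower, with means of 11986 and 9787 bases. Its percentile did not pass (limma adjusted p = 0.905), and how often covered bases separated over all H3K4me3 regions is not given here. The next widest H3K4me3 regions lay at ITPRID2, the current symbol of SSFA2 (7770 bases), GULP1, an adaptor for engulfment of dying cells (6833), PTMA, which encodes prothymosin (6565), and SCHLAP1, a long non-coding RNA of prostate cancer (6400). The SCHLAP1 site, a promoter by the authors' annotation without a RefSeq start within 1 kb, was listed lower (−0.35). Its folds of 44.5, 43.6 and 42.5 against 18.4, 27.7 and 35.9 did not overlap.

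Of the 44 decreases, 38 overlapped a region called in all 6 libraries. The folds did not overlap at 8 of these, 7 in the listed direction. The exception was ID2, an inhibitor of basic helix-loop-helix factors, whose concentration was lower in V16D/H19 (9.0 and 8.73) while its mean fold over input was higher (30.4 and 35.6). These counts too are a description, since the same libraries gave the list. Of all H3K4me3 regions called in all 6 libraries, 4.62% had a lower fold without overlap.

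H3K27me3 gave few increases. The largest was at RND3, the gene whose start held the H3K4me3 region past the test. That site (chr2:150475540-150478100), 9567 bases from the nearest RefSeq start of RND3, had concentrations of 3.74 and 5.17, no V16D/CTL peak and folds of 3.90, 3.24 and 4.28 in V16D/H19. At the listed H3K4me3 site over the RND3 start, the H3K27me3 folds overlapped between the groups (4.61, 3.81 and 4.60 in V16D/CTL against 4.24, 4.04 and 4.96 in V16D/H19). A second H3K27me3 increase without a symbol (chr2:150181219-150185762, 4.62 and 5.94) lay near the RND3 increase. The others were at MIR7515 (5.54 and 6.24) and LINC01320 (6.52 and 7.10). At the site without a symbol the folds overlapped (3.92 and 3.55 in V16D/CTL replicates 1 and 3 against 3.84, 3.65 and 3.53), so its higher concentration was not seen in the folds.

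The decreases of H3K27me3 were led by TNS1, which links integrins to actin, at 5.02 and 3.56, with folds of 4.02, 3.82 and 3.73 in V16D/CTL and no peak in V16D/H19. REEP1 followed at 6.32 and 5.40 (4.27, 4.19 and 3.69 against 3.89, 3.08 and 3.22), where the groups overlapped in fold. PTH2R, a parathyroid hormone receptor, had 6.11 and 5.21, RAPGEF4, a cAMP sensor, 6.05 and 5.20, and DES, the muscle intermediate filament desmin, 6.36 and 5.61. CYS1, a protein of the primary cilium, had 6.73 and 6.04, with folds of 4.80, 5.84 and 6.13 against 4.05, 4.33 and 3.96 that did not overlap. EN1, a homeobox gene of the midbrain and hindbrain, had 2 listed sites, at 6.87 and 6.21 and at 6.52 and 5.87. SRD5A2, the steroid reductase that makes dihydrotestosterone in the prostate and a gene chosen after its values were seen, had 7.37 and 6.88, with folds of 6.64, 5.95 and 5.84 against 5.19, 4.09 and 4.39 that did not overlap. Of the 24 listed decreases, 23 overlapped a region called in all 6 libraries, and the folds did not overlap at 11. Of all H3K27me3 regions called in all 6 libraries, 11.5% had a lower fold without overlap. The same libraries gave the list, so the count is a description.

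Within the HOXD cluster, H3K27me3 was strong in both groups and lower in V16D/H19 at each listed site. The site annotated to HOXD12 (chr2:176071009-176101577) had concentrations of 9.31 and 8.95, that annotated to HOXD10 8.73 and 8.32, and the one on the HOXD8 side (chr2:176119547-176141795) 9.05 and 8.67. At the last the folds were 5.00, 5.91 and 5.58 against 4.82, 4.50 and 4.74, without overlap. They overlapped at the HOXD12 site (4.67, 5.50 and 4.75 against 4.49, 4.21 and 5.01) and at the HOXD10 site (5.40, 5.18 and 5.00 against 5.38, 4.89 and 4.33). These differences were of 0.36 to 0.41, and no H3K27me3 region of HOXD passed the limma test. Of the 5 widest H3K27me3 regions, 2 were covered by fewer bases in V16D/H19 without overlap. How often this was so over all H3K27me3 regions is not given here. The total H3K27me3 peak length on chromosome 2 had means of 2.12 Mb in V16D/CTL and 1.90 Mb in V16D/H19, and the groups overlapped. The peaks of the 17358-base region at HOXD11 covered 14507, 16210 and 14424 bases in V16D/CTL against 12713, 11907 and 12552, and those of the 14815-base region at ASIC4-AS1 10373, 11615 and 12183 against 9487, 8858 and 9173. The groups overlapped at the other 3. These were PAX3 (22262 bases wide), with 18403, 19074 and 20026 against 14692, 16286 and 18444, REG1A (20911 bases), with 12098, 17100 and 15898 against 13332, 11923 and 13294, and ZEB2 (18728 bases), with 14747, 16310 and 15847 against 13018, 14378 and 15344.

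Few chromosome 2 sites carried both marks. Of the 1323 H3K4me3 sites, 152 overlapped an H3K27me3 site (11.5%, against 10.3% over all chromosomes), and in single libraries 104 to 112 H3K4me3 peaks lay on an H3K27me3 peak of the same replicate. Among the listed sites, 12 of 41 H3K4me3 increases (29.3%) but 3 of 44 decreases (6.82%) overlapped an H3K27me3 site, and 16 of 24 H3K27me3 decreases (66.7%) overlapped an H3K4me3 site, against 5.97% of all chromosome 2 H3K27me3 sites. Since direction chose these sets, the shares are a description. The H3K27me3 sets also differed in width and position. The listed decreases had a median width of 7761 bases, and 22 of 24 were at promoters by the authors' annotation. All chromosome 2 H3K27me3 sites had a median width of 1044 bases, and 8.29% lay within 1 kb of a RefSeq start. The 66.7% and 5.97% are thus not shares of like sets.

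In 3 places a listed site of 1 mark overlapped a listed site of the other, and in each the concentration of H3K4me3 was higher and that of H3K27me3 lower in V16D/H19. At HOXD8 the H3K4me3 concentration was 3.87 and 5.03 (+1.16) and that of H3K27me3 differed by −0.38. The H3K4me3 folds there were 5.11, 5.86 and 4.74 against 7.34, 7.07 and 8.73, each V16D/H19 library being higher. At REEP1 the differences were +0.49 and −0.92, with H3K4me3 folds of 19.8, 22.3 and 33.2 against 35.7, 36.9 and 34.1. At SPEG they were +1.77 and −0.53, but the H3K27me3 folds there overlapped (3.98, 5.08 and 4.70 against 4.81, 4.27 and 4.46) and its mean percentile was higher in V16D/H19 (91.7 and 96.3). Each of these promoters held at least 34 CG dinucleotides, as printed above.

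The genes were next read in lists, of which 109 of 130 members had a promoter in the RefSeq table. Of 9 measured HOXD locus genes, 8 had an H3K27me3 peak in all 6 libraries and 3 an H3K4me3 peak in all 6. Listed sites touched the locus with 1 H3K4me3 increase and with H3K27me3 decreases at 6 genes, the same wide sites covering several. Of 27 measured developmental transcription factors outside HOXD, 15 had H3K4me3 in all 6 libraries. For scale, of 1108 protein-coding chromosome 2 genes in the table, 2.8% had a listed H3K4me3 site that was higher, 3.25% one that was lower and 2.17% an H3K27me3 site that was lower. Of the 36 genes in this list, with or without a promoter in the table, 4 had a listed H3K4me3 site, all lower, namely DLX1 (10.00 and 9.25), SP5, a WNT target (7.03 and 6.46), ID2, and OSR1, a zinc finger gene of kidney and heart (5.35 and 4.23, folds 12.5, 12.9 and 10.2 against 6.74, 7.59 and 7.80). The folds overlapped at DLX1 (36.5, 52.1 and 32.4 in V16D/CTL against 28.9, 39.6 and 33.0 in V16D/H19) and at SP5 (14.1, 27.5 and 24.2 against 14.5, 23.1 and 13.5). Those of ID2 were higher in V16D/H19, as given above. For H3K27me3, 3 genes of this list had a listed site, also lower, namely EN1, POU3F3 (8.69 and 8.32, annotated to LINC01158) and PAX3 (9.53 and 9.22, annotated to CCDC140).

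Of 28 measured neuronal and secretory genes, 15 had H3K4me3 in all 6 libraries, 8 in none, 3 in more V16D/H19 and 2 in more V16D/CTL libraries. Of the 36 in the list, 4 had a listed H3K4me3 site that was higher, among them UNC80, SCN9A and CNTNAP5, and 0 one that was lower, and the difference from the other lists was not tested. The 1 listed for H3K27me3, GAD1, which makes the transmitter GABA, was lower (7.08 and 6.51). Of 16 measured genes of WNT, hedgehog and TGF-beta signalling, WNT6 was listed higher for H3K4me3, and IHH, a hedgehog ligand (7.81 and 7.33, annotated to MIR3131), and INHA, the inhibin alpha subunit (8.08 and 7.66, annotated to OBSL1), lower for H3K27me3. Prostate and epithelial genes were marked by H3K4me3 in all 6 libraries at 11 of 12, and 1 was listed, STEAP3, an iron reductase (8.14 and 7.68). Of 17 chromatin factors, 15 had H3K4me3 in all 6 libraries, and 0 were listed for either mark.

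Sites present in 1 group and absent from the other were few. An H3K4me3 peak in all 3 V16D/H19 and no V16D/CTL library was found at 14 of 1323 sites (1.06%, against 0.903% of all sites), and the reverse at 6 (0.454%, against 0.41%). Besides CCL20, WNT6 and SP140L, the strongest of the first kind were at NEURL3, a ubiquitin ligase (folds 7.38, 7.38 and 5.02), and LIMS2, a focal adhesion protein (5.08, 8.13 and 6.69). The strongest of the second kind was 1755 bases from the nearest RefSeq start, that of AFF3, a transcription elongation factor (8.52, 7.97 and 7.84). It was followed by the AC010136.2 site, at the start of TNS1-AS1, and the CCDC74B site. Next came sites 80570 bases from the start of SNTG2-AS1 and 52651 bases from that of CLASP1. For H3K27me3 there were 33 sites of the first kind (1.25%, against 0.98%) and 50 of the second (1.90%, against 1.97%). By nearest RefSeq start, the strongest were named LINC01818, LOC105374456, RND3, LINC01122 and LOC124906087 in V16D/H19. In V16D/CTL they were LOC105373359, TNS1, COPS7B, LOC105373484 and LINC01789. Only the TNS1 site lay at that start, and the others were 6582 to 296782 bases away. RND3 was the 1 gene among these names that also held the region past the H3K4me3 test.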

How the data were processed

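Per the labels, H3K4me3 and H3K27me3 chromatin immunoprecipitation libraries of V16D/CTL and V16D/H19 were made in 3 replicates each, with 6 input libraries. The authors called peaks per library with MACS2 against the input of the same replicate (narrow for H3K4me3, broad for H3K27me3). The submitters' processing notes also name hg38, DiffBind and ChIPseeker, and the aligner is not given in the sources used here. For each peak, the 12 deposited lists hold the ratio of its signal to input (the fold over input) and 2 values on a −log10 scale, from its p-value and its q-value. The 2 deposited tables hold the authors' log2 concentration per group at sites they kept at an FDR of up to 0.05. The columns with the authors' fold, p-value and FDR between groups were not used, and the sites they tested but did not list were not analysed here.

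Within a mark, peaks with 1 or more bases in common were merged. Regions with a peak in all 6 libraries were tested on the within-list percentile of the −log10 p with limma 3.58.1 (R 4.3.3), V16D/H19 against V16D/CTL over all chromosomes without a block, and adjusted by the Benjamini-Hochberg method over all regions of a mark. The code was tested on simulated data. Tables and figures were made with Python 3.11.15, numpy 2.4.6, pandas 2.3.3 and matplotlib 3.10.9. Promoters came from RefSeq (GRCh38.p14), where 58 of 85 H3K4me3 and 17 of 28 H3K27me3 listed symbols were matched, and no genome of that build was used. A promoter was counted as marked when a peak lay within 1000 bases of a start.

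Genes were named by a rule per mark: the 8 largest listed increases and decreases with no group at the lowest value of its column, regions past the limma test, list genes with a listed site, the 5 highest-ranked sites per direction with peaks in 1 group only, all pairs of overlapping listed sites, and the 5 widest regions called in all libraries. Genes named outside it are marked as chosen after their values were seen or serve as neighbours in rank. The members and gene lists were chosen with earlier results of these data known. Alternatives were log2 of the fold or of the −log10 p, peaks in 5 libraries, a −log10 q of at least 5, lists of equal length, a gap of 500 bases bridged in merging, a concentration difference of at least 1, a replicate block, and each replicate left out. The number of per-sample columns left unused was 0. The −log10 p of a peak rises with read depth, which ranks within a list do not remove fully, and the deposited lists hold no value where no peak was called. Some results that the naming rule covers are not reported here.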

Additional observations from a re-analysis of the deposited data

How the results depend on the processing

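Of 130 alternative values computed, 108 kept the call or moved by less than the spread between replicates, or by under 1.5 times for a count. A count of calls was judged by its number alone. Without V16D/CTL replicate 1 it stayed at 1 for H3K4me3, but the call was UNC80 (+24.7) in place of RND3. The RND3 difference kept its sign under each alternative run, whereas the difference in H3K27me3 peaks per library, −6.00, did not. The latter was 213 with lists of equal length, −17.3 at a −log10 q of at least 5 and between −305 and 178 with 1 replicate left out. The single H3K4me3 call (RND3) was lost on the log2 fold over input, where 0 regions passed and RND3 stood at −1.81, and leaving out 1 replicate gave 0 to 3 calls, with RND3 between −25.55 and −20.71; it missed the threshold without V16D/CTL replicate 1 (−21.09) or V16D/H19 replicate 1 (−20.71). With a replicate block there was 1 H3K4me3 call, RND3 (limma adjusted p = 0.00608), and 0 for H3K27me3. The deviations of same-numbered libraries from their group means, not their full profiles, correlated at 0.0167, 0.0132 and 0.0286 for H3K4me3. For H3K27me3 they correlated at 0.0275, −0.00644 and 0.0126, so the numbers were not taken as pairs. H3K27me3 gave 0 calls on chromosome 2 under each alternative run. Sites with peaks in 1 group only numbered 20 for H3K4me3 (29 to 48 with 1 replicate left out) and 83 for H3K27me3 (183 to 221), since fewer libraries must then agree, and 1 for H3K27me3 at a −log10 q of at least 5. At that limit 11 in place of 152 H3K4me3 sites overlapped an H3K27me3 site. Of listed H3K4me3 sites with a difference of at least 1, 17 were higher and 10 lower (63.0% higher, against 48.2% of all listed). For H3K27me3 only 2 higher sites and 1 lower site reached it (66.7% higher, against 14.3%), too few to compare. Over all chromosomes 192 were higher and 203 lower for H3K4me3, and 52 and 153 for H3K27me3. Of listed chromosome 2 H3K27me3 sites in regions called in all 6 libraries, 4.17% were higher. The median H3K4me3 difference over chromosome 2, under alternatives chosen after seeing the data, ranged from 2.17 to 4.14 with 1 replicate left out and was 1.64 with lists of equal length, and chromosome 2 stood first of 23 chromosomes under each setting run. Weak H3K27me3 peaks, most of them called in 1 library, limit what the one-group counts show, and concentrations carry no error, so listed differences cannot be set against replicate spread except through the folds.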
